A study of Rattus norvegicus with 24 samples.

Results

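Left and right ventricular RNA was compared within 6 rats labelled DAAO, using their 12 libraries out of the 24 in the series. Members were the left ventricular and right ventricular libraries carrying the label DAAO, paired by the 4-digit animal number in their titles (7135, 7137, 7138, 7142, 7143 and 7146). Each number occurred once per ventricle. All rats were of the strain given as WI. The left sample was left ventricle together with septum, and the right sample was the free wall of the right ventricle. The other 12 libraries came from 6 rats labelled CTL and served as the reference for the chamber difference. DAAO stands, by common use, for D-amino acid oxidase, and chemogenetic heart failure is the condition named in the series title. The labels used here state no vector, promoter, enzyme source, substrate, dose, duration, age or sex, and give no measure of heart function. Nothing in them states that each number is a rat of its own, and the p-values cover the spread among the samples as given.

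As background, the left ventricle pumps blood into the systemic circulation at high pressure, and the thinner right ventricle pumps into the lungs at low pressure. The chambers arise from different progenitor fields in the embryo and keep different programs of transcription factors, ion channels and contractile proteins in the adult. The septum holds the main branches of the conduction system, and here it is part of the left sample. D-amino acid oxidase turns D-amino acids into the matching keto acids and releases hydrogen peroxide. In chemogenetic models the enzyme is expressed in heart muscle and a D-amino acid is supplied, which exposes the cells to hydrogen peroxide.

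The comparison asked which genes differ in level between the chambers of the same DAAO heart. Expression was given as normalized counts, which are reads per gene divided by 1 size factor per library, scaled here over all 12 DAAO libraries together. The submitters handled the left and right samples as separate sets of raw files and separate tables. A chamber difference therefore cannot be told apart from a difference between the 2 sets of libraries. Genes carry Ensembl numbers in both tables, and none of the 32883 could be paired with a symbol here. The levels of heart muscle, atrial, conduction, fat or other cell type markers, which would check the labelled tissue, were not analysed here for that reason. In tissue samples, fewer cells of a type and less RNA per cell cannot be told apart.

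Left ventricular DAAO libraries held 15705469 to 19509174 recovered reads, and right ventricular ones 13280705 to 18777633. Left libraries were the deeper ones in 4 of 6 animals, and the difference in reads did not pass the threshold (exact paired permutation test over 64 sign changes, two-sided, p = 0.281). Genes with at least 1 read numbered 18393 ± 317 in the left and 17157 ± 532 in the right ventricle (SD, n = 6 each), and the left number was higher in 6 of 6 animals. That gave p = 0.03125 in the exact paired permutation test, the smallest value 6 pairs allow, and 0.0938 after Benjamini-Hochberg adjustment over 3 library measures. In libraries thinned to 13280705 reads the numbers were 17958 and 16936, again higher in the left ventricle in 6 of 6 animals. CTL rats showed the same direction, with 18282 ± 550 genes in the left and 16051 ± 416 in the right ventricle (SD, n = 6 each, higher in the left in 6 of 6). CTL left libraries were deeper in 5 of 6 animals, with 15363539 to 23263897 reads against 14419449 to 16679620 in the right. Thinned to the same 13280705 reads, CTL libraries held 17788 ± 538 and 15931 ± 379 genes (SD, n = 6 each), again more in the left in 6 of 6 animals. The 10 most abundant genes held 21.8% ± 2.5 of the reads in the left and 23.1% ± 2.1 in the right ventricle (SD, n = 6 each, higher in the left in 1 of 6 animals, exact paired permutation p = 0.0625, adjusted p = 0.0938).

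The DAAO libraries differed both by animal and by chamber, where the chamber coincides with the set of libraries. The first principal component carried 33.6% of the variance and ordered the animals, and the second carried 24.8% and separated every left from every right library. On the first component both libraries of 7138, 7143 and 7146 lay above 0 (from 12.4 to 48.1), and both libraries of 7135, 7137 and 7142 lay below 0 (from -51.7 to -5.05). On the second component the left libraries ran from 26.3 to 36.3 and the right ones from -41.1 to -27.8. The right library of 7135 stood apart on the third component (11% of variance), at 54.6, where the other right libraries ran from -35.3 to 10.3. Gene by gene, the median share of variance was 49.4% for the animal, 21% for the chamber and 18.5% for the rest. Their degrees of freedom alone would give mean shares of 45.5%, 9.09% and 45.5%, which are not medians and so only a rough reference. The chamber took a larger share than the animal in 4567 of 13895 genes (32.9%).

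**Figure D1:**
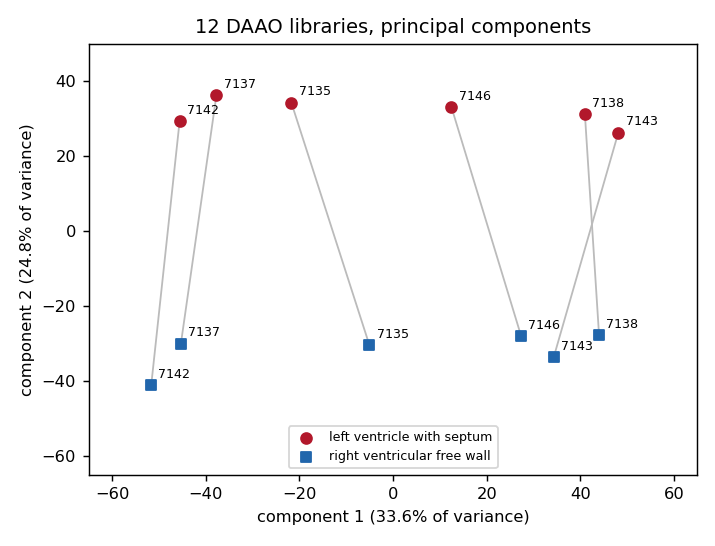
First and second principal components (share of variance on each axis) of log2(normalized count + 1) for the 12 DAAO libraries, with a grey line joining both libraries of an animal. Left libraries (circles, 26.3 to 36.3) and right libraries (squares, -41.1 to -27.8) are separated on the vertical axis, and the animals are spread along the horizontal axis.

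Across the DAAO hearts, 5697 of 13895 genes tested (41%) differed between the chambers in the limma fit with the animal as a block, at an adjusted p of 0.05. Of these, 2777 (20% of the genes tested) were higher in the left and 2920 (21%) were higher in the right ventricle. Most differences were modest, with a median of 0.57 among the genes higher in the left and of -0.45 among those higher in the right, as left minus right on the log2(value + 1) scale. Genes at least 2-fold apart were mostly higher in the left ventricle: 603 genes (4.34%) against 199 (1.43%) higher in the right. At 4-fold or more there were 100 genes higher in the left and 24 higher in the right. Without the block 3730 genes were called, 1958 higher in the left and 1772 in the right, and 3722 of them were among the 5697 with the same direction. The median difference over all genes was -0.02. Scaling every library to the same total moved that median to 0.08 and the split to 3616 higher in the left and 1866 in the right. The deposited values, scaled apart in each ventricle, gave a median of 0.28 and 6515 against 799. The near-equal numbers in each direction are therefore relative to the scaling. Genes at least 2-fold higher in the left and right numbered 732 and 140 with equal totals and 1121 and 69 with deposited values. Both scalings moved the median toward the left, so they could only raise the left excess of 2-fold genes and do not test it.

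For most called genes the 6 animals shared the direction. All 6 animals had the higher level in the left ventricle for 2201 of the 2777 genes called there, and in the right ventricle for 2177 of the 2920 called there. The genes were called in these same animals, so the call itself favours such agreement and this is a description only. All 6 animals shared the direction for 76.8% of the called genes and for 35% of all 13895 tested. For 1080 genes (7.77% of those tested) all 6 left libraries lay above all 6 right libraries, and for 819 genes (5.89%) all 6 right libraries lay above all 6 left ones. Such complete separation was found for 406 of the 603 genes at least 2-fold higher in the left ventricle and for 90 of the 199 at least 2-fold higher in the right. At 4-fold or more it was found for 90 of 100 and 16 of 24 genes. The largest differences toward the right thus overlapped between chambers in a greater part of their genes, as a description with no test of the difference.

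When each animal was set against the genes called in the 5 others, it repeated their direction for 85.4% of the genes at the lowest (7137) and 96.0% at the highest (7142). The other animals lay between 89.3% and 95.2%. In 7137 the share was 89.6% for genes higher in the left and 81.4% for genes higher in the right ventricle. The median size of the difference along the direction of the others ran from 0.45 in 7137 and 7138 to 0.53 in 7142, on the log2 scale, while the others' own medians ran from 0.51 to 0.55. Over all 13895 genes the chamber differences of any pair of animals correlated with an r from 0.458 to 0.618 (median 0.542 over 15 pairs). That is a description across genes, and the pairs share the same 2 sets of libraries.

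Chamber differences changed with abundance. Among the 3720 genes with a joint mean normalized count from 10 to 100, 735 were higher in the left and 396 in the right ventricle. In this class 420 genes were at least 2-fold higher in the left and 124 in the right, so it held most of the 603 and of the 199. Among the 7424 genes from 100 to 1000, 1501 were higher in the left and 1743 in the right. Among the 2599 genes from 1000 to 10000 the numbers were 527 and 736. Among the 152 genes with a mean of at least 10000, 14 were higher in the left and 45 in the right ventricle. The median difference over all genes of a class passed from 0.06 in the lowest to -0.16 in the highest class. The genes at least 2-fold higher in the left ventricle had a median joint mean of 39.97, against 64.6 for those higher in the right and 296.8 for all genes tested. The left libraries also held more detected genes, and whether that has a part in this excess of low genes on the left was not tested. With equal library totals the direction in the 2 middle classes turned, to 1997 higher in the left against 1069 in the right and to 779 against 463. In the most abundant class the right stayed ahead, at 39 against 22, and in the lowest class the left, at 809 against 294.

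**Figure D2:**
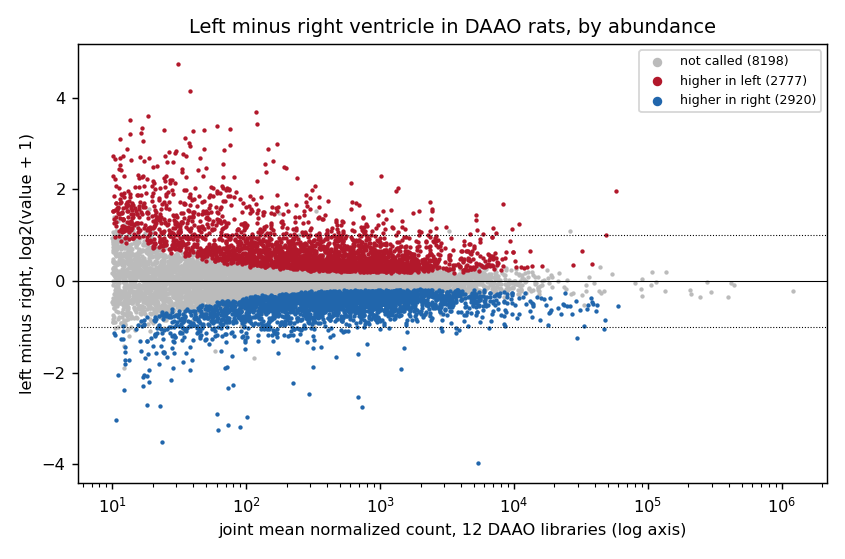
Left minus right difference on the log2(value + 1) scale (vertical) against the joint mean normalized count on a log axis (horizontal), 1 point per gene tested in the 12 DAAO libraries, with dotted lines at 2-fold. Red points (2777) were called higher in the left and blue points (2920) higher in the right ventricle, and the red points beyond 2-fold lie mostly at low means.

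**Figure D3:**
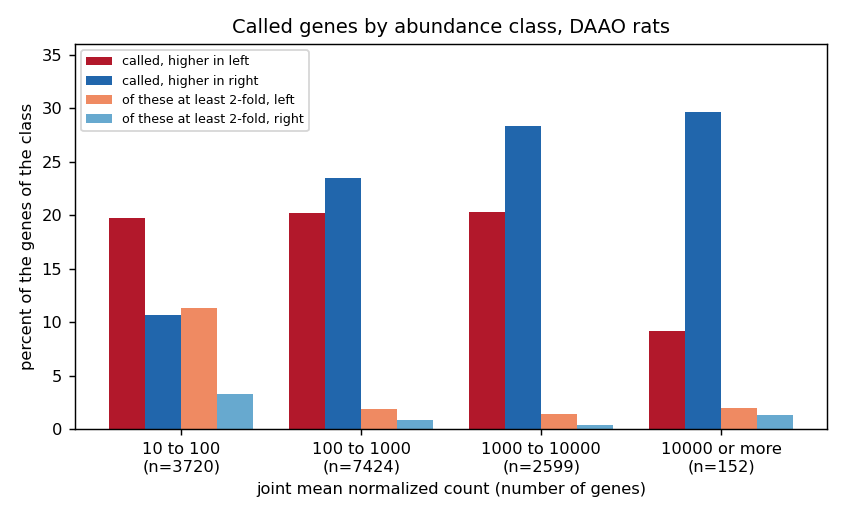
Percent of the genes of each abundance class (horizontal, with the number of genes) called higher in the left or right ventricle of DAAO rats, and the part of them at least 2-fold apart. Called genes were more often left in the lowest class (735 against 396) and more often right in the highest (45 against 14).

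Transcripts found almost only in 1 chamber were few among all 32883 gene numbers. With a mean of at least 10 in one ventricle and under 1 in the other, 9 genes stood on the left side and 3 on the right side. Another count, of genes with reads in all 6 libraries of one ventricle and none in any of the other, gave 20 genes for the left and 0 for the right. The highest mean among those 20 was 5.71, so they rest on few reads. Left libraries also held more detected genes at equal depth (17958 against 16936 in thinned libraries). Whether that has a part in these counts was not tested. None of the 10 most abundant genes was called in either direction, and their largest difference was 0.35 on the log2 scale.

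In the most abundant class, from a mean of 10000 upward, 3 genes were at least 2-fold higher in the left and 2 in the right ventricle. The most uneven one on the left had a normalized count of 88274 ± 33541 in the left and 27905 ± 19396 in the right ventricle (SD, n = 6 each). Its left libraries ran from 60571 to 145450 and its right ones from 4928 to 59049, so the groups did not overlap. The difference was 1.97 (SE 0.29, limma adjusted p = 0.000237), higher in the left in 6 of 6 animals. One of the 2 on the right spread far more between animals than between chambers. Its left libraries ran from 249.9 to 57438 and its right libraries from 470.2 to 94392, with overlapping groups, yet was higher in the right in 6 of 6 animals (difference -1.23, SE 0.19, limma adjusted p = 0.000324). The other one was called (difference -1.05, SE 0.37, limma adjusted p = 0.0354) although 2 of 6 animals had the higher level in the left ventricle.

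The 4 genes given by number had the largest differences among 3522 genes that were called, had a joint mean of at least 100 and the same direction in all 6 animals (1618 higher in the left, 1904 in the right). ENSRNOG00000032807 had the largest difference toward the left ventricle. In the order 7135, 7137, 7138, 7142, 7143 and 7146, its normalized counts were 178.3, 272.2, 186.2, 205.2, 210.3 and 266.9 in the left ventricle. In the right ventricle they were 12.1, 27.5, 15.4, 17.5, 10.8 and 16.2. The lowest left library thus lay far above the highest right one. The means were 219.8 ± 40.3 and 16.6 ± 5.9 (SD, n = 6 each), a difference of 3.69 (SE 0.17, limma adjusted p = 1.19e-07).

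ENSRNOG00000050490 came next on the left side. In the same order of animals its normalized counts were 268.3, 332.5, 350.0, 268.2, 279.5 and 304.6 in the left and 31.3, 29.6, 36.5, 29.2, 50.8 and 47.7 in the right ventricle. The groups did not overlap, and 7143 and 7146 had the highest right levels and the smallest differences. The means were 300.5 ± 34.7 and 37.5 ± 9.5 (SD, n = 6 each), a difference of 3.0 (SE 0.15, limma adjusted p = 1.19e-07).

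ENSRNOG00000029954 had the largest difference toward the right ventricle under the rule. Its normalized counts were 28.9, 31.1, 40.95, 33.2, 4.12 and 10.6 in the left ventricle. In the right ventricle they were 76.7, 224.3, 190.1, 297.5, 110.2 and 165.7. No left library reached any right one, while the animals differed in the size of the step, from -1.38 in 7135 to -4.44 in 7143 on the log2 scale. The lowest left level, of 7143, rests on 5 reads. The means were 24.8 ± 14.3 and 177.4 ± 79.5 (SD, n = 6 each), a difference of -2.96 (SE 0.32, limma adjusted p = 1.89e-05).

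ENSRNOG00000022637 was the second on the right side. Its normalized counts were 217.1, 196.4, 119.1, 198.3, 115.4 and 107.3 in the left ventricle. In the right ventricle they were 2223, 580.9, 1991, 1999, 462.5 and 503.3. The right libraries were high in 7135, 7138 and 7142 and lower in 7137, 7143 and 7146, and every one of them lay above all left libraries. The means were 159 ± 49.95 and 1293 ± 857 (SD, n = 6 each), a difference of -2.75 (SE 0.26, limma adjusted p = 7.03e-06). Since the rule chose these 4 genes for large, called differences with 1 direction in all animals, their direction with an animal left out was fixed by the choice and says nothing of stability. Under the 18 alternatives run, the difference of this last gene lay between -2.99 and -2.45.

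**Figure D4:**
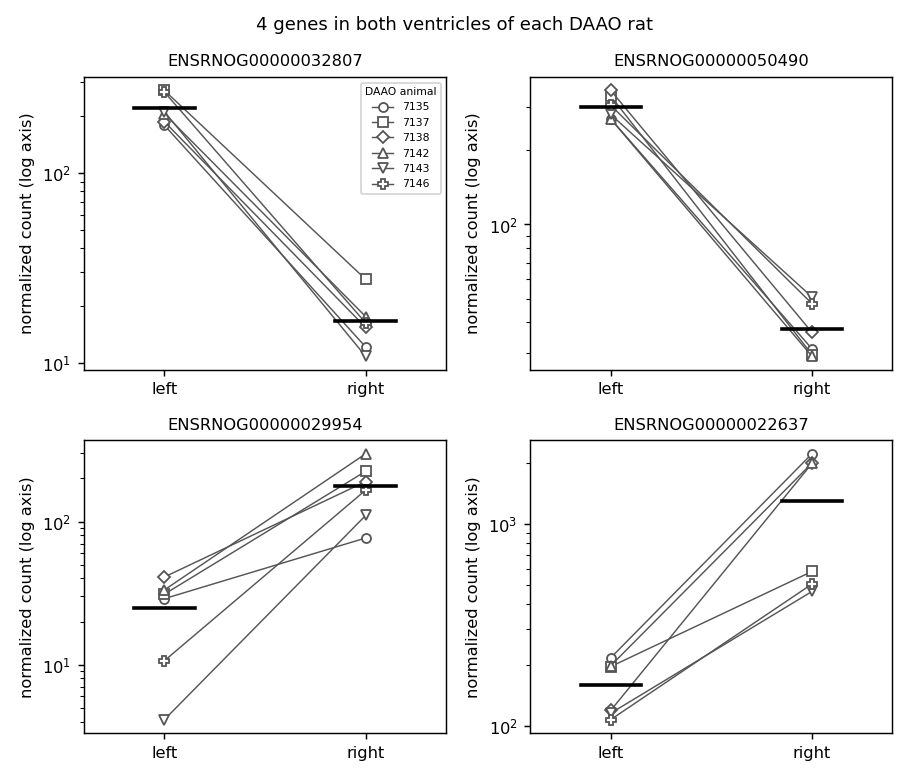
Normalized counts on a log axis (vertical) in the left and right ventricle (horizontal) of the 6 DAAO rats, 1 line and marker shape per animal, with a thick bar at the mean of 6 libraries. The 2 upper genes fell from left to right in every animal with little spread, and the 2 lower genes rose in every animal with a wider spread, ENSRNOG00000022637 reaching 2223 in animal 7135.

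The rule left out 2 genes with larger or similar differences because the animals did not agree in direction, and they are described after their values were seen. One was called higher in the right ventricle (difference -3.97, SE 0.77, limma adjusted p = 0.00136), with right normalized counts of 16950, 25630, 8973 and 10820 in 7137, 7142, 7143 and 7146. Its right level was only 284.5 in 7135 and 184.3 in 7138, where the left libraries stood at 179.1 and 211.3. The difference thus rested on 4 animals. The other was called higher in the left (difference 3.44, SE 0.96, limma adjusted p = 0.0121), with a left level of 1255 in 7138, between 35.5 and 85.9 in 7135, 7137 and 7142, and under 2 in the remaining animals.

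Levels varied more between DAAO animals in the right than in the left ventricle. On the scale of all 24 libraries the median SD of log2 levels over 6 animals was 0.302 in the right and 0.211 in the left ventricle, and 76.0% of 13810 genes had the larger SD in the right. The excess was present at low and high abundance, with 74.1% of genes under a mean of 100 and 81.3% of genes from 1000 upward. Animal 7135, whose right library stood apart, was left out in a separate scaling and filtering of the other DAAO libraries alone. There the medians were 0.296 in the right and 0.217 in the left ventricle, and 70.8% of 13849 genes had the larger SD in the right. On the scale of all 24 libraries, CTL rats showed the larger right SD as well, with medians of 0.301 in the right and 0.221 in the left ventricle and 71.3% of genes. In CTL rats the share was 77.3% under a mean of 100 and 63% from 1000 upward, so it fell with abundance there. No test was made of this spread, and genes are not independent replicates.

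The chamber differences of DAAO rats were then set beside those of CTL rats, which come from other animals but from the same 2 sets of libraries, in 1 fit over 24 libraries and 13810 genes. In this fit 5151 genes (37.3%) differed between the chambers in DAAO rats and 7442 (53.9%) in CTL rats. Of the 5151, 4052 (78.7%) were called in CTL rats with the same direction, and these were 54.4% of the CTL calls. Across all genes the DAAO and CTL chamber differences correlated with an r of 0.796, as a description over 13810 genes whose values share the 2 sets of libraries. Genes at least 2-fold apart numbered 748 in DAAO and 1589 in CTL rats. Among the 563 genes at least 2-fold higher in the left ventricle of DAAO rats, 516 (91.7%) were called on the same side in CTL rats, and among the 185 higher in the right, 160 (86.5%).

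Whether the chamber difference itself differed between DAAO and CTL rats was tested gene by gene in the same fit, where a constant difference between the 2 sets of libraries cancels. It differed for 1067 genes (7.73%), lying more to the left in DAAO rats for 574 and more to the right for 493. With equal library totals that split was 352 and 646. For 638 of the 1067 the difference had the same sign in both groups and was smaller in DAAO rats (339 higher in the left and 299 higher in the right ventricle of CTL rats). For 67 it had the same sign and was larger in DAAO rats, 63 of them higher in the left ventricle. The remaining 362 had opposite signs in the groups, and 41 of these were called in both. Of the 5151 DAAO calls, 527 (10.2%) differed from CTL in this test. The total was 385 without the block, split into 232 smaller, 27 larger and 126 opposite.

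The count of 1067 changed in both directions when 1 animal was left out. It fell to 566 without DAAO animal 7138, 462 without 7142 and 396 without 7146. It was 513 without CTL animal C_7000 and 711 without C_7120 (CTL names follow the tables' columns). Without DAAO animal 7137 it rose to 1312, without C_7005 to 1297 and without C_7123 to 1328. In the remaining cases it lay between 718 and 1025. Each of these fits also had fewer animals. Genes with a smaller difference in DAAO rats outnumbered those with a larger one whenever 1 animal was left out, with 244 to 766 against 20 to 113. The left and right libraries of CTL animals C_7118, C_7120 and C_7123 deviated together only weakly from their group means, with an r of 0.05, 0.0739 and 0.241 over 13550 genes, against 0.477 to 0.764 in the other CTL animals. The left libraries of C_7118 and C_7120 correlated better with the right library of another animal (r of 0.484 and 0.269). For C_7123 the best other value, 0.246, was nearly the same as its own. Whether these 3 animals are wrongly paired was not tested. Without these 3 animals 359 genes were called, 221 smaller, 17 larger and 121 opposite.

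Of the 4 named genes, ENSRNOG00000032807 differed between the groups. In CTL rats its left libraries had normalized counts of 118.1 to 181.7 and its right libraries 21.3 to 28.9, so the CTL groups did not overlap either. The chamber difference was 2.64 (SE 0.15) in CTL rats, and that of DAAO rats was larger by 1.05 (SE 0.22, limma adjusted p = 0.0104). This call held in each of the 24 alternatives that kept the gene, with a limma adjusted p of 0.0343 at the highest, without DAAO animal 7146. A joint mean of at least 100 over all 24 libraries left the gene out. Its right levels in DAAO rats rest on 10 to 26 reads per library. The gene was chosen for its large DAAO difference, which is part of the value tested, so the test is not independent of the choice. ENSRNOG00000050490 had a chamber difference of 3.78 (SE 0.24) in CTL rats, and the DAAO value differed from it by -0.77 (SE 0.34, limma adjusted p = 0.168). The right-sided genes ENSRNOG00000029954 and ENSRNOG00000022637 had CTL differences of -2.80 (SE 0.37) and -2.22 (SE 0.39). Their DAAO values differed from these by -0.15 (SE 0.52, limma adjusted p = 0.892) and -0.52 (SE 0.54, limma adjusted p = 0.595), and errors of that size do not show that the groups are alike. ENSRNOG00000022637 also varied widely in CTL right ventricles, from 250.1 to 1940, with CTL left ventricles between 92.9 and 170.8.

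**Figure D5:**
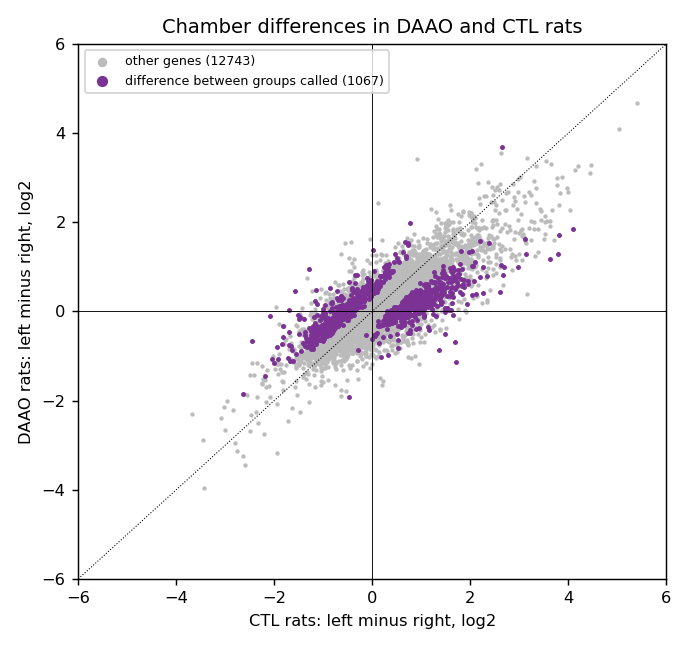
Left minus right difference on the log2 scale in DAAO rats (vertical) against CTL rats (horizontal), 1 point per gene over 13810 genes, with a dotted line where both are equal. Purple points are the 1067 genes whose chamber difference differed between the groups, and most of them lie closer to 0 on the DAAO than on the CTL axis.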

How the data were processed

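Per the labels' protocols, RNA came from snap-frozen hearts by Trizol extraction, and Novogene prepared and sequenced paired-end libraries. The submitters' processing notes name FastQC, STAR 2.7.0a, the build Rnor_6.0 and DESeq2 1.26.0. Which read counter, annotation and strand setting were used is not given in the sources used here, so genes that overlap or have near copies are uncertain. The authors deposited normalized counts, a signal of reads divided by 1 size factor per library, computed separately for each ventricle. Dividing a library's values by its smallest value above 0 gave whole numbers throughout (100% within 1e-06), and the reads so recovered were joined across both tables over 32883 gene numbers.

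Reads were scaled by median-of-ratios size factors over the 12 DAAO libraries, or over all 24 for the comparison with CTL. Genes with a joint mean of at least 10 were tested with limma 3.58.1 under R 4.3.3, as log2(value + 1), using a trend of variance on mean and the animal as a block, two-sided, with Benjamini-Hochberg adjustment. Fold changes on this scale understate those of low genes. Both libraries of a DAAO animal deviated together from their group means, with r from 0.489 to 0.668 across genes, and every left library correlated best with the right library of its own number. Every pair of libraries within a DAAO chamber differed by more than sampling noise allows (chi-square per degree of freedom of 13.4 or more). edgeR 4.0.16 and DESeq2 1.42.0 on recovered reads were alternatives, beside other scalings, filters, pseudocounts, thinned reads and left-out animals. The fits were also run on simulated data with few changed genes, balanced in direction. That setting differs from these data, so it says nothing of the counts given here.

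The reference table (assembly GRCr8, 47357 genes) holds no Ensembl number and matched 0 identifiers, so no symbol, position or sequence is given and the 36 pathway and marker lists could not be run. The naming rule, by size, mean of at least 100 and direction in all 6 animals, was applied by gene number, 2 in each direction. The comparison and the lists were chosen with earlier results of these data known.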

Additional observations from a re-analysis of the deposited data

Results flagged for a closer look

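The chamber difference differed between DAAO and CTL rats for 1067 genes when that difference was tested directly in the limma fit with the animal as a block. Among the genes named, ENSRNOG00000032807 was one of them, with a left minus right difference larger by 1.05 on the log2 scale in DAAO than in CTL rats. The gene was named for its large DAAO difference, which is part of the value tested. Its right levels in DAAO rats rest on 10 to 26 reads per library. No library stood far from the others in its group of 6 in any of 22 groups looked at, which covered the 4 named genes and 3 library measures.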

How the results depend on the processing

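The 5697 chamber differences in DAAO rats stayed within 1.5 times under 17 of 18 alternatives. Leaving out 1 animal gave 4627 to 5399, edgeR 5617 (5508 shared with the same direction) and DESeq2 5432 (5328 shared). Without the replicate block, 3730 were called, 1772 of them higher in the right. Equal library totals gave 1866 higher in the right. The deposited values, scaled separately in each ventricle, gave 6515 higher in the left and 799 in the right, at least 2-fold 1121 and 69, and moved the median of all genes to 0.28. With a joint mean of at least 100, 182 and 74 genes were at least 2-fold higher in the left and right, and with no filter 1155 were so in the left. Against 7442 in the fit over 24 libraries, CTL calls numbered 6141 without the replicate block, 6327 without C_7000 and C_7005, 5958 with a joint mean of at least 100 and 6774 to 7139 with 1 CTL animal left out, and deposited values gave 6563 higher in the left and 1624 in the right.

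Of the 1067 differences between the groups, leaving out 1 animal gave 396 to 1328, lying more to the left in DAAO for 215 to 734 and more to the right for 181 to 645. Without the replicate block 385 were called, 206 and 179 by direction. With no filter, where more genes entered, 641 were called, 347 and 294. A joint mean of at least 100, where fewer genes entered, gave 1198, 675 and 523. Equal library totals gave 352 more to the left. Without CTL animals C_7000 and C_7005 together 709 were called, 331 more to the left. DESeq2 called 1560. For ENSRNOG00000029954, whose difference between the groups was not called, the value of -0.15 turned to 0.0096 with a pseudocount of 5, and to between 0.0136 and 0.145 without DAAO animal 7143 (0.145), DAAO 7146 (0.027), C_7005 (0.0434) or C_7121 (0.0136). The lowest value with 1 animal left out was -0.58, without C_7000. Filters changed which genes entered and left-out animals lowered the number of animals, and the causes of these changes were not tested. The gene fits on thinned reads, the thinned CTL libraries and the fit without CTL animals C_7118, C_7120 and C_7123 were chosen after seeing the data. At this depth, genes with a mean near 10 rest on few reads per library, and their differences are less precise.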
